A study of Mus musculus with 6 samples.

Results

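The liver sinusoidal endothelial genes are 10 genes of the deposited count table, chosen by name as markers of the endothelial cells that line the hepatic sinusoids: Stab1, Stab2, Gpr182, Clec4g, Lyve1, Ehd3, Oit3, Fcgr2b, Bmp2 and Kdr. All 10 were found among the 45706 genes of the table by their symbols, and all 10 passed the filter on low counts that left 14069 genes for testing. They were measured by poly(A) RNA sequencing of whole liver in 3 wild-type libraries (WT 1 to WT 3) and 3 libraries labelled ENTPD-8 knockout (KO 1 to KO 3), from mice kept in a pathogen-free facility. Entpd8 encodes NTPDase8, an enzyme that breaks down extracellular nucleotides, and the series asks about its role in liver ischemia. The labels name no allele, promoter or Cre line for the knockout. They do not give sex, age, strain or sampling time, nor whether these livers had been made ischemic. Whether each library stands for its own mouse is not stated either, and the p-values reflect only how these samples spread. Library totals ran from 32768774 to 46473531 counts. Entpd8 itself fell from 39.3 ± 17.0 to 0.733 ± 0.356 CPM (counts scaled to the size of each library; SD, n = 3 per group; log2 fold change -5.72, edgeR adjusted p = 0.00151).

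Liver sinusoidal endothelial cells form a fenestrated lining without a continuous basement membrane, and they clear waste molecules, immune complexes and modified proteins from blood through scavenger and Fc receptors. They also signal to hepatocytes, among other routes through bone morphogenetic proteins that control the iron hormone hepcidin, and they need vascular endothelial growth factor for their upkeep. In injured liver these cells are known to lose fenestrae and to take on features of ordinary capillary endothelium. In whole-liver RNA, fewer cells of a type and less RNA per cell cannot be told apart.

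The genes did not move as a block. Gpr182 and Stab1 fell in the knockout livers, Ehd3 rose, and the other 7 did not pass the test, which was edgeR's quasi-likelihood test with Benjamini-Hochberg adjustment over all genes tested and a threshold of 0.05. So 3 of 10 genes were called, against 20.4% of all genes tested. The 1 gene called higher stands beside 9.8% of all genes and the 2 called lower beside 10.6%, so the count lies near the background of this comparison. The wild-type and knockout libraries did not overlap for 5 of the 10 genes, against 40.7% of genes tested. The median log2 fold change of the 10 genes was -0.12, and that of all genes tested was -0.02. The median of the 10 depended on single libraries, being -0.35 without KO 3, -0.27 without WT 2, -0.064 without KO 1, -0.021 without WT 1 and -0.0036 without KO 2. Without KO 1 the test called 0 of the 10, although 4 had an unadjusted p below 0.05, and without WT 1 it called 1. Calls over all genes fell too, from 2871 of 14069 tested to 603 of 14374 without KO 1 and 1653 of 14367 without WT 1. The same totals stand beside the counts of other lists given below without KO 1 or WT 1.

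**Figure D1:**
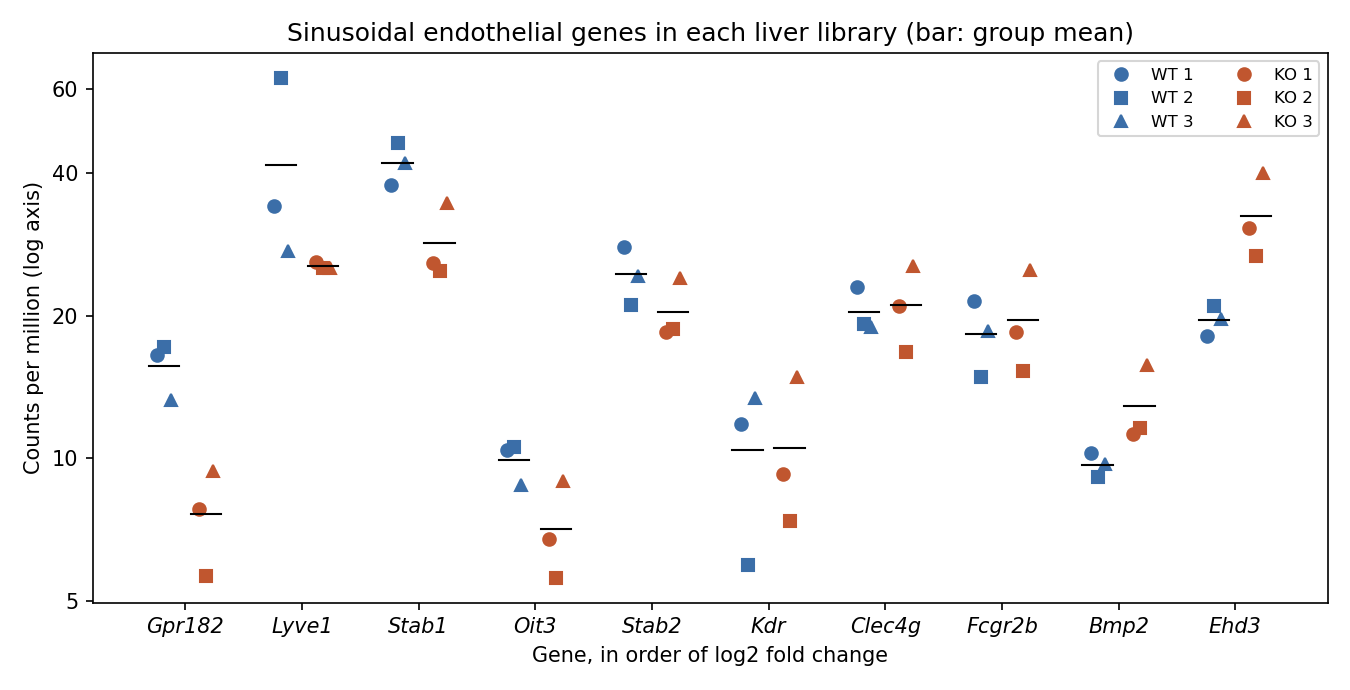
CPM of each gene (log axis) in the 3 wild-type (blue) and 3 knockout (orange) libraries, with a bar at each group mean. Gpr182, Lyve1 and Stab1 lie lower and Bmp2 and Ehd3 higher in every knockout library than in every wild-type library, and the other 5 genes overlap.

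RefSeq promoter windows (GRCm38.p6) were matched for 6 of the 10 genes (Clec4g, Ehd3, Fcgr2b, Kdr, Stab1 and Stab2), and those of Stab1, its paralog Stab2 and Ehd3 are printed because Stab1 fell, Stab2 did not pass and Ehd3 rose. Each run is the 250 bases before the RefSeq start site, read 5′ to 3′ on the strand of the gene. The RefSeq starts of Stab2 and Ehd3 lie inside the GENCODE gene models. Capitals mark a match to AGGAAG or its reverse complement CTTCCT, a form of the site bound by ETS factors such as Erg and Fli1. Other forms of the ETS site, shorter ones included, were not searched and are not marked.
Stab1, chr14:31168642-31168891, minus strand: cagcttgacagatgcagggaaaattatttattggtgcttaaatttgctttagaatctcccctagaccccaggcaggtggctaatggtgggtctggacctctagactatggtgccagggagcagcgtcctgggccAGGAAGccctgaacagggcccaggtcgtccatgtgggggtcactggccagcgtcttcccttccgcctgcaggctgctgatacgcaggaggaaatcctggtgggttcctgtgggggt
Stab2, chr10:87007943-87008192, minus strand: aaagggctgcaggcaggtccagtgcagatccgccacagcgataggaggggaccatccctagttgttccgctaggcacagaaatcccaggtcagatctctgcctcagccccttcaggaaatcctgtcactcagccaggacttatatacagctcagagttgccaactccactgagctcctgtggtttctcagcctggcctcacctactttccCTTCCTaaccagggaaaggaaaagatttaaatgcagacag
Ehd3, chr17:73804591-73804840, plus strand: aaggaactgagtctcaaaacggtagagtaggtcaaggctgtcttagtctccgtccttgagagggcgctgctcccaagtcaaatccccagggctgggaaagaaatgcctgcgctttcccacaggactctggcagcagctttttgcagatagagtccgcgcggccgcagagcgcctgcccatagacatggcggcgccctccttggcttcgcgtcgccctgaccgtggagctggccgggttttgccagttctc
The Stab1 window holds 1 match, starting 116 bases before the start site, and the Stab2 window holds 1, starting 40 bases before it. No match was found in the Ehd3 window. Of the windows not printed, that of Clec4g, which did not pass, holds 3 matches, more than any other of the 6, and those of Fcgr2b and Kdr hold none. Of 32851 windows of the same length, 29.5% hold the ETS motif. Of GATA motifs only the form AGATAA was searched, on both strands, and other forms were not. It was found in 9.99% of all windows and in none of the 6, and the AP-1 motif TGANTCA in 6.75% and in none of the 6. A match is a run of letters and not a measured binding site.

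Among the scavenger receptors, Stab1 fell and its paralog Stab2 did not pass. Stab1 encodes stabilin-1, a large receptor that takes up modified lipoproteins and matrix fragments and is also made by some macrophages. Its level was 37.6, 46.1 and 41.8 CPM in WT 1, WT 2 and WT 3, against 25.9, 24.8 and 34.6 CPM in KO 1, KO 2 and KO 3. All 3 knockout libraries lay below all 3 wild-type libraries. The group means were 41.9 ± 4.27 and 28.4 ± 5.36 CPM (SD, n = 3 per group), with a log2 fold change of -0.56 ± 0.16 (SE) and an edgeR adjusted p of 0.0392. The call of Stab1 is the least stable of the 3. Leaving out WT 1, WT 2, WT 3, KO 1 or KO 2 ended it (adjusted p from 0.0567 to 0.162), as did removal of the trend with gene length (adjusted p = 0.0650). The gene lies on chromosome 14 from 31139013 to 31168641 (GRCm38, minus strand) and shares 112 bases at its end with Nt5dc2 on the other strand.

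Stab2 encodes stabilin-2, the main receptor for clearance of hyaluronan from blood. It was measured at 27.9, 21.1 and 24.3 CPM in the wild-type and 18.4, 18.7 and 24.0 CPM in the knockout libraries. Only KO 3 reached the wild-type range. Its log2 fold change of -0.26 ± 0.15 (SE) did not pass (edgeR adjusted p = 0.268). It was -0.16 without WT 1 and -0.39 without KO 3. Whether the 2 stabilins differ in response was not tested.

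Lyve1, a hyaluronan receptor of sinusoidal and lymphatic endothelium, had the largest wild-type SD of the 10 in CPM. It stood at 34.1, 63.3 and 27.3 CPM in WT 1, WT 2 and WT 3 and at 25.9, 25.2 and 25.2 CPM in the knockout libraries. WT 2 lay far above its group mates, while the knockout libraries lay close together and all below the wild-type range. The log2 fold change of -0.71 ± 0.29 (SE) did not pass (edgeR adjusted p = 0.121). It was -0.27 without WT 2, and without WT 3 it was -0.94 and passed (adjusted p = 0.0410).

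Clec4g and Fcgr2b, which bind glycans and immune complexes at the sinusoidal surface, showed no separation. Clec4g encodes the C-type lectin LSECtin. Its level was 23.0, 19.2 and 19.0 CPM in the wild-type and 21.0, 16.8 and 25.5 CPM in the knockout libraries. Its log2 fold change was 0.05 ± 0.17 (SE, edgeR adjusted p = 0.858), and it was below 0 with upper-quartile scaling and with library totals alone. Fcgr2b encodes the inhibitory receptor for IgG, which these endothelial cells use to take up small immune complexes and which B cells and macrophages also carry. It stood at 21.5, 14.9 and 18.5 CPM in the wild-type and 18.4, 15.3 and 24.9 CPM in the knockout libraries, with a log2 fold change of 0.10 ± 0.21 (SE, edgeR adjusted p = 0.771). The knockout range of Clec4g enclosed its whole wild-type range, and for Fcgr2b only WT 2 lay outside the knockout range.

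Gpr182 had the largest fall of the 10. It encodes an atypical chemokine receptor of endothelial cells that takes up chemokines without signalling through G proteins. Its level was 16.5, 17.2 and 13.2 CPM in WT 1, WT 2 and WT 3 and 7.81, 5.66 and 9.42 CPM in KO 1, KO 2 and KO 3. The groups were well apart, with means of 15.6 ± 2.10 and 7.63 ± 1.89 CPM (SD, n = 3 per group). This was a 2.05-fold lower level, a log2 fold change of -1.03 ± 0.20 (SE, edgeR adjusted p = 0.0141). The call was lost without KO 1 (adjusted p = 0.0603), although the log2 fold change was then -1.05. Gpr182 lies on chromosome 10 from 127747276 to 127751732 on the minus strand (GRCm38). It shares 74 bases with Zbtb39 on the other strand, whose log2 fold change was 0.10 (adjusted p = 0.759).

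Ehd3 was the 1 gene of the 10 that rose. It encodes an ATPase that shapes membranes of recycling endosomes. Its level was 18.1, 21.0 and 19.7 CPM in the wild-type and 30.6, 26.7 and 39.998 CPM in the knockout libraries. The lowest knockout library exceeded the highest wild-type library. The means were 19.6 ± 1.42 and 32.4 ± 6.85 CPM (SD, n = 3 per group), and the log2 fold change was 0.73 ± 0.16 (SE, edgeR adjusted p = 0.0197). The call was lost when WT 1 or KO 1 was left out (adjusted p at most 0.0667), with log2 fold changes of 0.67 and 0.77. Ehd3 lies on chromosome 17 from 73804134 to 73832094 on the plus strand (GRCm38), with no annotated gene overlapping it.

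Oit3, a secreted zona pellucida domain protein made by these endothelial cells, stood at 10.4, 10.6 and 8.80 CPM in the wild-type and 6.77, 5.61 and 8.96 CPM in the knockout libraries. KO 3 alone overlapped the wild-type range, and the log2 fold change of -0.48 ± 0.20 (SE) did not pass (edgeR adjusted p = 0.119). The ligand Bmp2 and the receptor Kdr complete the 10. Bmp2, a bone morphogenetic protein through which sinusoidal endothelium instructs hepatocytes, stood at 10.2, 9.15 and 9.72 CPM in the wild-type and 11.3, 11.6 and 15.7 CPM in the knockout libraries. Every knockout library was above every wild-type library, but the log2 fold change of 0.41 ± 0.16 (SE) did not pass (edgeR adjusted p = 0.112), and it was 0.24 without KO 3. Kdr encodes VEGF receptor 2. It was measured at 11.8, 5.97 and 13.4 CPM in the wild-type and 9.26, 7.38 and 14.9 CPM in the knockout libraries, where WT 2 was the lowest of all 6. Its log2 fold change was 0.02 ± 0.35 (SE, edgeR adjusted p = 0.979), and it was below 0 with upper-quartile scaling and with library totals alone.

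**Figure D2:**
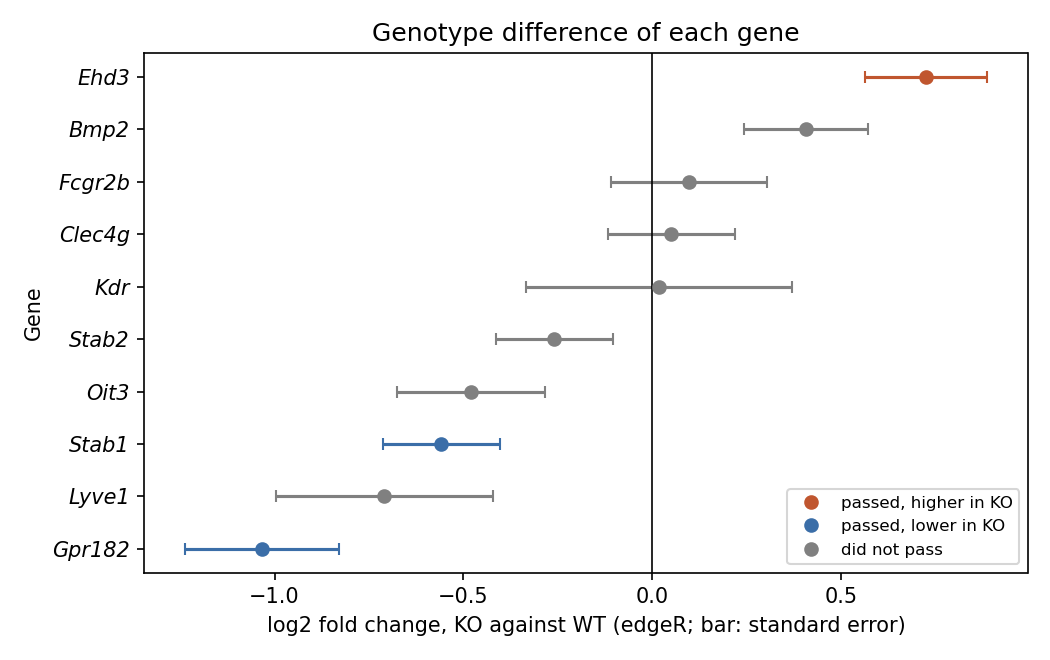
Log2 fold change of each gene, knockout against wild type, from edgeR, with bars of 1 standard error and colour by call. Gpr182 (-1.03) and Stab1 (-0.56) passed as lower and Ehd3 (0.73) as higher, and the gene with the widest bar is Kdr.

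Levels of different genes can be compared only per length, so counts were divided by the summed exon length of each gene and scaled so that every library has the same sum (TPM). In wild-type livers Lyve1 was highest at 32.9 ± 12.7 TPM, followed by Clec4g at 19.5 ± 2.54 TPM, and Kdr was lowest at 2.77 ± 1.19 TPM (SD, n = 3). The wild-type libraries of Lyve1 lay above those of Clec4g, those of Clec4g above those of Stab1 and those of Bmp2 above those of Kdr. Between Stab1 at 9.59 TPM and Bmp2 at 6.46 TPM, neighbours in the order overlapped across libraries, though Gpr182 exceeded Oit3 within each of the 3. In knockout livers Lyve1 and Clec4g were level at 18.3 ± 1.18 and 18.1 ± 4.89 TPM, and all 9 pairs of neighbours overlapped across libraries. Within each of the 3 knockout libraries, though, Clec4g exceeded Ehd3, Ehd3 exceeded Bmp2 and Fcgr2b exceeded Stab1. The same held for Stab1 over Oit3, Stab2 over Gpr182 and Gpr182 over Kdr. The other pairs kept their order in 2 of 3 libraries. Ehd3 stood at 10.5 ± 2.90 TPM in knockout livers, at position 3 in the order, and Gpr182 at 4.09 ± 1.26 TPM, at position 9. In wild-type livers Ehd3 was at position 7 with 7.05 ± 0.535 TPM and Gpr182 at position 4 with 9.29 ± 0.719 TPM.

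The knockout libraries differed among themselves in one direction for most of these genes. KO 3 was the highest knockout library for 9 of the 10, Lyve1 being the exception, and KO 2 was the lowest for 7. Over all genes tested, KO 3 was the highest knockout library for 40.1% and KO 2 the lowest for 39.2%. KO 3 was also the highest knockout library for all 25 of a list of pan-endothelial genes, which mark endothelium of any organ, and KO 2 the lowest for 18 of them. The mean log2 CPM of those 25 genes was 2.69, 2.44 and 3.08 in KO 1, KO 2 and KO 3, against 2.67, 2.69 and 2.45 in WT 1, WT 2 and WT 3.

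Each gene was also expressed against the mean log2 CPM of the 25 pan-endothelial genes of its own library, as a description without a test. On this scale Oit3 was 0.71, 0.72 and 0.69 in the wild-type and 0.08, 0.06 and 0.09 in the knockout libraries, a difference of -0.63 with SDs of 0.0134 and 0.0153. The groups of Oit3, which overlapped in CPM, did not overlap on this scale. Gpr182 differed by -1.18, Lyve1 by -0.74, Stab1 by -0.70 and Ehd3 by 0.57, each with no overlap between the groups. In CPM, 40.7% of all genes tested did not overlap, and their share on this scale was not computed. The mean of the 25 genes was itself 0.13 higher in knockout libraries, which lowers every difference on this scale by that amount. Stab2 (-0.39), Clec4g (-0.10), Fcgr2b (-0.05), Kdr (-0.10) and Bmp2 (0.26) overlapped. The knockout libraries had an SD of 0.0324 for Fcgr2b and 0.0311 for Ehd3 on this scale, and the wild-type libraries 0.316 and 0.172. Other genes spread more, with wild-type and knockout SDs of 0.538 and 0.329 for Lyve1 and 0.717 and 0.192 for Kdr. The scale depends on the list: 3 of its 25 genes rose in knockout livers.

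**Figure D3:**
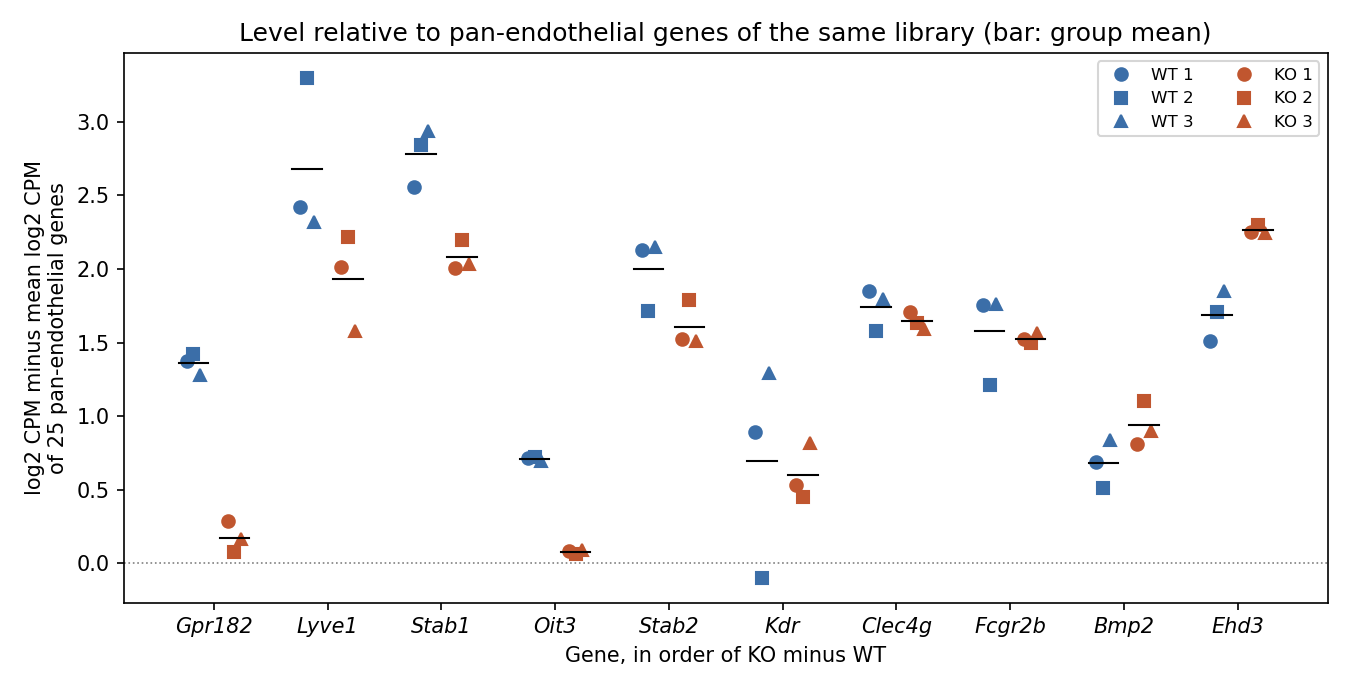
Log2 CPM of each gene minus the mean log2 CPM of 25 pan-endothelial genes in the same library, for 3 wild-type (blue) and 3 knockout (orange) libraries, with a bar at each group mean. Oit3 sits at 0.69 to 0.72 in wild-type and 0.06 to 0.09 in knockout libraries, and Gpr182, Lyve1, Stab1 and Ehd3 also separate.

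Genes nearest in pattern were sought among 10354 others with a mean log2 CPM of at least 1, by the root mean square difference from the mean centred log2 CPM of the 10 over the 6 libraries. The nearest were Myo1c (0.038), Huwe1 (0.045), Usp24 (0.049), Trappc10 (0.055) and Meis2 (0.058, all in log2 units). None of these 5 was called in the genotype test (edgeR adjusted p from 0.367 to 0.708). They were picked for closeness to a mean that differed by only -0.17 between genotypes. Small differences therefore follow from the selection, and no conclusion is drawn from the lack of calls. Of the 10 themselves, Stab2 and Clec4g (both 0.12) lay nearest to their common pattern and Lyve1, Gpr182 (both 0.46) and Ehd3 (0.45) farthest.

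Of 24 other genes known from sinusoidal endothelium tested, 0 rose and 2 fell, or 8.33% called against 20.4% of all genes tested. Their median log2 fold change was -0.15 (-0.014 without KO 2, -0.098 without WT 1 and -0.26 without KO 3). DESeq2 called 5 of the 24 and limma voom 2. Over all genes DESeq2 called 3585 of 15346 tested and limma voom 2800 of 14069. These totals also stand beside the DESeq2 and limma voom counts of the lists below. Ctsl, Aass and Il6st of this list, named for their levels, averaged 1312, 577 and 226 CPM in wild-type livers, far above any of the 10 genes. The part of other cells in those levels was not tested. The falls were those of Adam23 (-1.47 ± 0.19, SE, edgeR adjusted p = 0.00396), a transmembrane protein of the disintegrin family, and Sparc (-0.58 ± 0.13, edgeR adjusted p = 0.0231), a matrix-binding glycoprotein also made by stellate cells. Adam23 was measured at 10.9, 11.2 and 10.97 CPM in the wild-type and 4.07, 3.09 and 4.79 CPM in the knockout libraries. The VEGF receptor Flt4 (-0.59) and the plexin Plxnc1 (-0.89) lay lower in all 3 knockout libraries without passing, and the tight junction gene Cldn5 (0.54) lay higher. The largest difference of the list was that of Cd36, a fatty acid and lipid scavenger receptor that many cell types carry. It stood at 22.8, 9.35 and 13.9 CPM in the wild-type and 59.7, 18.9 and 112 CPM in the knockout libraries, so that KO 2 lay within the wild-type range. Its log2 fold change of 2.05 ± 0.63 (SE) did not pass (edgeR adjusted p = 0.0626), but it passed without KO 2 (adjusted p = 0.0267) and in DESeq2, and it was 1.36 without KO 3. Sparc lost its call when WT 1, KO 1 or KO 2 was left out (adjusted p at most 0.0915). Plxnc1 passed without KO 3 (adjusted p = 0.0273) and in DESeq2, Flt4 without KO 3 (adjusted p = 0.0379), and Cldn5 with RLE size factors and in DESeq2.

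Of the 25 pan-endothelial genes, 3 rose and 0 fell (12% called, against 20.4% of all genes tested), with a median log2 fold change of -0.04. The sign of the median depended on single libraries: it was 0.15 without KO 2 and 0.077 without WT 2, but -0.20 without KO 3 and -0.12 without WT 3. DESeq2 called 4 and limma voom 3, and edgeR called 1 without WT 1, KO 1 or KO 3. The endothelial transcription factor Sox7 rose from 0.771 ± 0.0674 to 3.34 ± 0.839 CPM (SD, n = 3 per group), a log2 fold change of 2.11 ± 0.28 (SE, edgeR adjusted p = 0.00438). The sphingosine-1-phosphate receptor S1pr1 rose by 0.61 ± 0.16 (adjusted p = 0.0346) and the lectin-like receptor Cd93 by 1.06 ± 0.31 (adjusted p = 0.0495). Cdh5, the cadherin of endothelial junctions, had a log2 fold change of 0.36 ± 0.33, and the receptor Tie1 one of 0.22 ± 0.28. Cdh5 and Tie1 were named after their values were seen. Of the 25 genes, 12 had a log2 fold change above 0 and 13 below 0. In all 3 knockout libraries 7 lay above the wild-type range and 3 below it. Clec14a (-0.63 ± 0.25, edgeR adjusted p = 0.105) was among those below. Robo4 (0.58 ± 0.19, adjusted p = 0.0678) and Emcn (0.80 ± 0.34, adjusted p = 0.130) were among those above. None of these 3 passed, but Robo4 did in DESeq2. Cdh5 ran from 0.037 without KO 3 to 0.59 without KO 2. S1pr1 did not pass without WT 1, WT 2, KO 1 or KO 3 or with total-count scaling (adjusted p up to 0.107), and Cd93 did not pass without any 1 of the 6 libraries, with upper-quartile scaling, with total-count scaling or without the filter on low counts (adjusted p up to 0.130).

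Among 16 genes tested of large-vessel or capillary-like endothelium, 4 rose and 0 fell, with a median log2 fold change of -0.01. That is 25% called, against 20.4% of all genes tested called in either direction and 9.8% called higher. The median ran from -0.28 without KO 3 to 0.25 without WT 1. DESeq2 and limma voom each called 4 higher. The tetraspanin Cd9 (-0.52 ± 0.19, edgeR adjusted p = 0.0850) passed as lower without WT 3 (adjusted p = 0.0462), with total-count scaling and with the trend with gene length removed. The gap junction gene Gja4 rose from 5.29 ± 0.376 to 13.1 ± 1.53 CPM (SD, n = 3 per group; log2 fold change 1.30 ± 0.15, SE, edgeR adjusted p = 0.00289). Endothelin-1, Edn1, rose by 2.47 ± 0.41, the caveolar coat gene Cav1 by 1.96 ± 0.39 and the leukocyte adhesion receptor Selp by 2.87 ± 0.55 (edgeR adjusted p up to 0.0158). Edn1 was low throughout, at 0.386, 0.410 and 0.139 CPM in the wild-type and 1.88, 1.77 and 1.60 CPM in the knockout libraries. Selp stood at 3.22, 2.46 and 1.11 CPM in the wild-type and 13.7, 7.98 and 28.1 CPM in the knockout libraries. Plvap, a diaphragm protein of capillary endothelium, was at 31.1 ± 6.65 and 23.2 ± 8.41 CPM (SD, n = 3 per group), with a log2 fold change of -0.42 ± 0.27 (SE) that did not pass (edgeR adjusted p = 0.299), and it ran from -0.21 without KO 2 to -0.74 without KO 3. Leaving out KO 1 ended the calls of Cav1 (adjusted p = 0.0592) and Selp (adjusted p = 0.0608), and Selp also did not pass without the filter on low counts.

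By position along the sinusoid, 3 of 11 genes of central endothelium rose (Gja4, Selp and the cadherin Cdh13, 1.41 ± 0.42, SE, edgeR adjusted p = 0.0496) and 0 fell, although 1 was called lower without KO 3. The central share of 27.3% stands beside 20.4% of all genes tested called in either direction and 9.8% called higher. Of 10 genes of portal endothelium, edgeR called 0, while 1 had an unadjusted p below 0.05, DESeq2 called 1 and limma voom 0. Without KO 2 edgeR called 1 as higher. The difference between the 2 lists was not tested. Cdh13 lost its call without WT 1, WT 2, WT 3, KO 1 or KO 3, in limma voom, and with upper-quartile or total-count scaling (adjusted p reached 0.148).

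Bmp2 acts on hepatocytes through BMP receptors and SMAD proteins, which switch on hepcidin. Of 30 genes tested of this pathway and its iron sensors, 3 rose and 4 fell, with a median log2 fold change of -0.11 (0.050 without WT 3). The 23.3% called lies near the 20.4% of all genes tested. Among ligands, Gdf2 (BMP9, made by stellate cells) fell by 1.23 ± 0.25 on the log2 scale and Bmp5 by 0.78 ± 0.16 (edgeR adjusted p = 0.0168 and 0.0170). Bmp6, the other endothelial ligand of the hepcidin pathway, was at 0.827, 1.20 and 0.861 CPM in the wild-type and 1.04, 0.997 and 2.73 CPM in the knockout libraries, and did not pass (edgeR adjusted p = 0.281). Its log2 fold change of 0.73 was 0.082 without KO 3. Of receptors and modulators, the type I receptor Acvr1 (0.49 ± 0.14) and the decoy receptor Bambi (0.81 ± 0.19) rose, while Neo1 (-0.49 ± 0.13), a co-receptor partner, and the extracellular BMP binder Bmper (-1.75 ± 0.44) fell (edgeR adjusted p up to 0.0415). Of the readouts, Id2 rose by 1.12 ± 0.32 (adjusted p = 0.0436), and Id1 (0.97 ± 0.35) and Id3 (1.16 ± 0.43) did not pass. Without WT 2, Id1 was 1.505 (adjusted p = 0.00701) and Id3 1.87 (adjusted p = 0.00225), and both passed in DESeq2 and Id3 in limma voom. The call of Id2 was lost without any 1 library other than WT 2. Hamp, the hepcidin gene, stood at 20.1, 345 and 19.5 CPM in WT 1, WT 2 and WT 3 and at 302, 410 and 174 CPM in KO 1, KO 2 and KO 3. WT 2 lay among the knockout libraries, and the log2 fold change of 1.21 ± 1.10 (SE) did not pass (edgeR adjusted p = 0.474), but without WT 2 it was 3.90 and passed (adjusted p = 0.00332). Bmp6, Id1, Id3 and Hamp were named after their values were seen. Of the 7 called, Gdf2 was lost without KO 1 only, Bmp5 without KO 1 or KO 2, and the others without 4 or more of the 6 libraries. The count of 7 was 0 without KO 1, 2 without WT 1, KO 2 or KO 3 and 11 without WT 2, and it was 12 in DESeq2. Over all genes the calls were 603 of 14374 without KO 1, 3080 of 14475 without WT 2 and 3585 of 15346 in DESeq2.

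Kdr binds VEGF ligands, and its signals pass through calcineurin and Notch, among other routes. Of 24 genes tested of VEGF ligands, receptors and feedback, 5 rose and 1 fell, with a median log2 fold change of 0.15, which was -0.094 without KO 3 and -0.016 without WT 3. So 25% were called, against 20.4% of all genes tested. Of ligands, Vegfb rose by 0.66 ± 0.14 (edgeR adjusted p = 0.0177). The placental growth factor Pgf also passed, at very low levels of 0.0276, 0.154 and 0.0555 CPM in the wild-type and 0.534, 0.324 and 0.463 CPM in the knockout libraries. Vegfa, the main ligand of Kdr, named after its value was seen, had a log2 fold change of 0.25 ± 0.13 (SE) that did not pass (edgeR adjusted p = 0.226). The calcineurin inhibitor Rcan1 rose from 39.1 ± 9.78 to 219 ± 34.3 CPM (SD, n = 3 per group; log2 fold change 2.49 ± 0.21, SE, edgeR adjusted p = 0.00100). Hes1, a Notch target, rose by 1.20 ± 0.21 and the Notch ligand Jag1 by 1.37 ± 0.34, while the endothelial receptor Notch4 fell by 0.87 ± 0.26 on the log2 scale (edgeR adjusted p up to 0.0460). Rcan1, Hes1, Vegfb and Jag1 are not restricted to endothelium. The count of 6 was 2 without KO 1 and 3 without WT 1 or WT 3. Rcan1 and Hes1 passed without each library in turn. Notch4 was lost when any 1 of the 6 was left out, Jag1 was lost without each except KO 2, Pgf without WT 1, WT 3, KO 1 or KO 3 and Vegfb without KO 1 or KO 2.

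Of 18 genes tested for angiocrine and shear-responsive factors, 4 rose and 0 fell, with a median log2 fold change of 0.37. This share of 22.2% stands beside 20.4% of all genes tested called in either direction and 9.8% called higher. The median ran from 0.12 without KO 3 to 0.60 without WT 1, and without WT 2 the count was 4 higher and 2 lower. The 4 that rose were Edn1, the flow-responsive transcription factors Klf2 (0.94 ± 0.16) and Klf4 (1.29 ± 0.21), and the cytokine Il6 (edgeR adjusted p up to 0.00831). Il6 was low throughout, at 0.138, 0.128 and 0.0555 CPM in the wild-type and 0.916, 0.822 and 1.54 CPM in the knockout libraries. These 4 genes also respond to acute stress in many cell types.

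The relatives of Ehd3 went both ways, and 30% of those tested were called, against 20.4% of all genes tested. Of 10 genes tested of the EHD and recycling endosome family, Ehd4 rose (0.82 ± 0.17) and Ehd2 (-0.89 ± 0.20) and Pacsin3 (-0.64 ± 0.10) fell (edgeR adjusted p up to 0.0191), and Ehd1 (0.22 ± 0.10) and Pacsin2 (0.50 ± 0.15, adjusted p = 0.0548) did not pass, though Pacsin2 passed without WT 3 and in DESeq2. Ehd2 sits at caveolae, and Pacsin3 encodes a membrane-bending partner of EHD proteins. Ehd4 was lost without WT 1 or KO 1, Ehd2 without WT 1, KO 1 or KO 2 and Pacsin3 without KO 1, with adjusted p at most 0.0776.

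Of 20 other scavenger and endocytic receptor genes tested, 4 rose and 4 fell, with a median log2 fold change of -0.06 (-0.0069 without KO 2, -0.13 without WT 1). In this list 40% were called, against 20.4% of all genes tested. Rises included those of the asialoglycoprotein receptor subunit Asgr2 (0.88 ± 0.14), the collectin Colec12 (1.34 ± 0.25) and the clathrin adaptor Dab2 (0.81 ± 0.19). Falls were those of the macrophage hemoglobin scavenger Cd163 (-1.69 ± 0.26), the Kupffer cell lectin Clec4f (-1.62 ± 0.26), the endocytic receptor Lrp1 (-0.74 ± 0.15) and the lectin Ly75 (-1.03 ± 0.27, edgeR adjusted p up to 0.0352 for all 8). Asgr2 is mainly a hepatocyte receptor in liver. Of 8 Fc receptor and partner genes tested, Fcgr2b included, 1 rose: Pigr, which carries polymeric IgA across epithelium (0.52 ± 0.15, edgeR adjusted p = 0.0426). Here 12.5% were called, against the same 20.4%. The activating receptor Fcgr4 (-0.94 ± 0.30) did not pass (edgeR adjusted p = 0.0596). It passed as lower without WT 3 (adjusted p = 0.0484), with total-count scaling, without the filter on low counts, in DESeq2 and with the trend with gene length removed. The count of 8 scavenger genes was 4 without KO 1 and 13 in DESeq2, where the calls over all genes were 603 of 14374 and 3585 of 15346. Asgr2, Cd163 and Clec4f passed without each library in turn, Colec12 was lost without KO 1, Lrp1 without KO 1 or KO 2, Dab2 without WT 3, KO 1 or KO 3 and Ly75 without any except WT 2. Pigr was lost without any 1 library other than WT 1 and with upper-quartile or total-count scaling (adjusted p reached 0.187).

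Hyaluronan is the ligand of Stab2 and Lyve1. Of 16 genes tested for its synthesis, binding and breakdown, 1 rose and 4 fell, with a median log2 fold change of -0.06 (0.051 without WT 1, -0.23 without WT 2). Thus 31.25% were called, against 20.4% of all genes tested. The hyaluronidase Hyal2 fell from 41.8 ± 5.74 to 22.2 ± 1.49 CPM (SD, n = 3 per group; log2 fold change -0.91 ± 0.13, SE, edgeR adjusted p = 0.00560). The heavy chains Itih3 (-1.34 ± 0.30) and Itih4 (-1.11 ± 0.22), secreted by hepatocytes, and the receptor Hmmr, which is also a mitosis gene (1.40 ± 0.962 and 0.205 ± 0.137 CPM, SD, n = 3 per group), fell, and the hyaluronan-binding gene Tnfaip6 (2.72 ± 0.41) rose (edgeR adjusted p up to 0.0272). Itih4 was lost without KO 1, Itih3 without KO 1 or KO 3 and Hmmr without WT 1, KO 1 or KO 3, with adjusted p at most 0.0954.

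Lists of markers of neighbouring cells differed in the share called. Of 15 Kupffer cell and macrophage genes tested, 8 fell and 0 rose, with a median log2 fold change of -1.06. This was 53.3% called, against 20.4% of all genes tested called in either direction and 10.6% called lower. Siglec1, a macrophage lectin, stood at 4.07 ± 1.91 and 0.566 ± 0.0997 CPM and Cd5l at 51.0 ± 23.2 and 13.8 ± 1.73 CPM (SD, n = 3 per group). Both fell, and Cd5l lost its call without KO 1 or KO 3. The count of 8 was 5 without WT 1 or WT 3, 4 without KO 2 or KO 3 and 3 without KO 1. Their summed level was 378 to 550 CPM in wild-type and 229 to 392 CPM in knockout libraries, of which the complement gene C6, named after its value was seen and made also by hepatocytes, gave 210 and 213 CPM on average. Stab1, Lyve1 and Fcgr2b are known from some macrophages too, and the part of these cells in the fall of Stab1 was not tested. Of 15 stellate cell genes, 3 fell and 0 rose (1 without KO 1, 5 without WT 2; summed level 280 to 392 against 177 to 377 CPM), and of 12 hepatocyte genes 1 fell (0 without KO 1). These shares, 20% and 8.33%, stand beside the same 20.4% of all genes called in either direction and 10.6% called lower. The endothelial list of 10 itself summed to 196 to 228 CPM in wild-type and 158 to 223 CPM in knockout libraries. In 6 B and plasma cell genes tested 3 rose, or 50% against 9.8% of all genes tested called higher. The whole list summed to 3.97 to 8.93 CPM in wild-type and 49.3 to 68.5 CPM in knockout libraries, and B cells carry Fcgr2b. T and NK cell genes summed to 2.36 to 2.59 against 5.53 to 6.52 CPM, biliary genes to 91.6 to 120 against 133 to 320 CPM and neutrophil and monocyte genes to 180, 61.0 and 43.9 CPM in WT 1, WT 2 and WT 3 against 124 to 161 CPM. Of 8 T and NK cell genes tested 2 rose (0 without KO 1), and of 6 biliary genes tested 2 rose. These shares, 25% and 33.3%, stand beside 20.4% of all genes tested called in either direction and 9.8% called higher. Of the 10 neutrophil and monocyte genes edgeR called 0, while 1 had an unadjusted p below 0.05, DESeq2 called 1 and limma voom 0. Without WT 1, edgeR called 7 as higher, with a median log2 fold change of 1.70 in place of 0.78. Over all genes it called 930 of 14367 as higher without WT 1. Among 6 lymphatic endothelial genes 1 fell, Prox1, which hepatocytes also make (-0.60 ± 0.13, edgeR adjusted p = 0.0206). For this list 16.7% were called, against 20.4% of all genes tested. Leaving out WT 1 or any 1 knockout library ended the call of Prox1, with adjusted p at most 0.0732. The share of mitochondrially encoded counts was 6.52% to 8.34% in wild-type and 10.1% to 11.7% in knockout libraries.

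**Figure D4:**
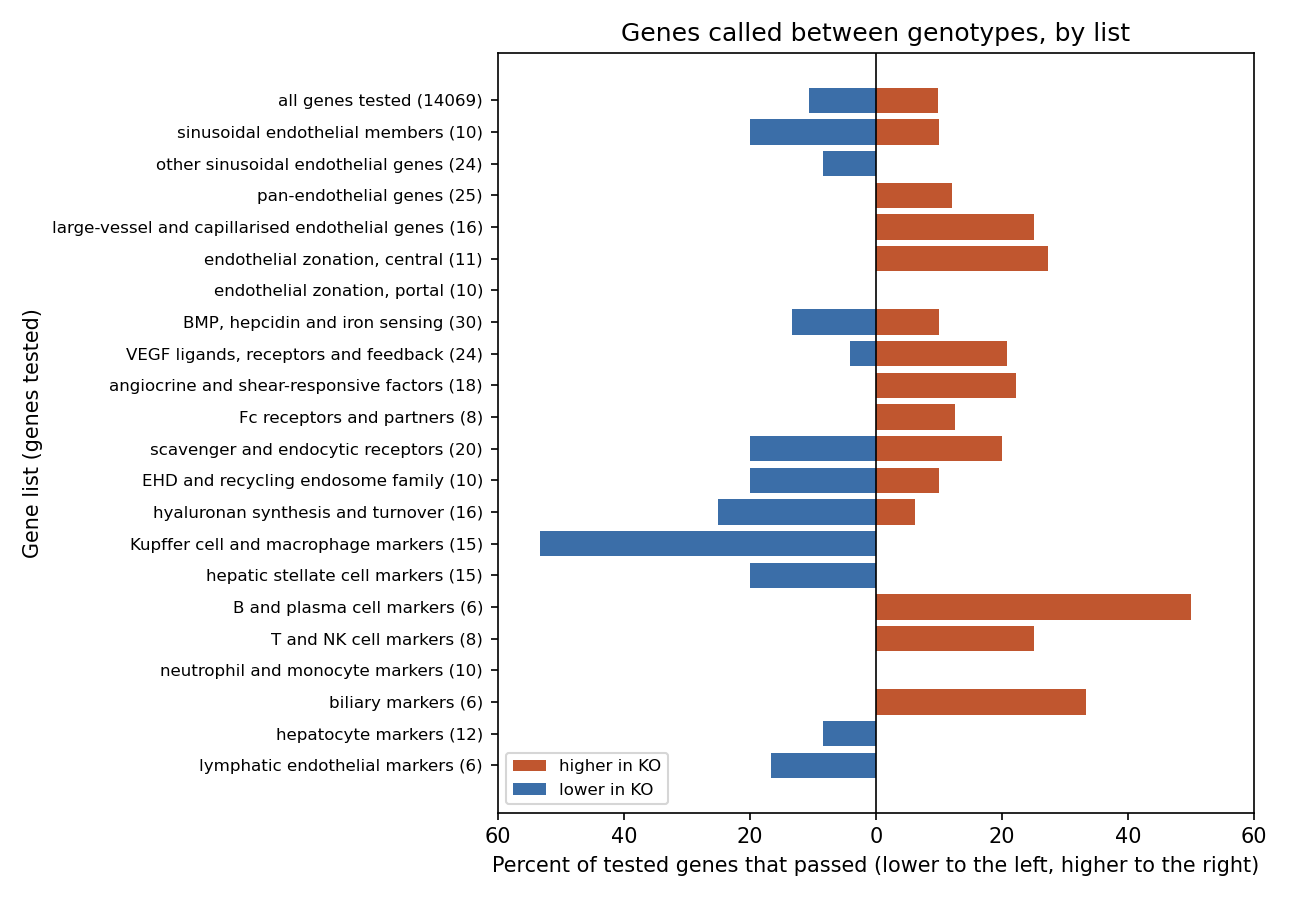
Percent of the tested genes of each list that passed as higher (orange, right) or lower (blue, left) in knockout livers, with the number tested in parentheses. The 10 sinusoidal endothelial genes, with 1 higher and 2 lower, stand beside 9.8% and 10.6% of all genes tested, and the macrophage list, with 8 of 15 lower, reaches farthest to the left.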

How the data were processed

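Poly(A) RNA was sequenced in 6 mouse liver libraries. Per the submitters' processing notes, Trim Galore, STAR and Salmon were used with GRCm38; tool versions: not given in the sources used here. Deposited values were expected counts, unscaled estimates of reads per gene, by the authors. Between 8.38% and 9.32% of values per library were not whole, as were 11 of the 60 values of the 10 genes. Estimated counts share reads between similar transcripts, and strand use is not stated. Counts were rounded, filtered with filterByExpr, scaled by TMM and tested in edgeR 4.0.16 (glmQLFit, robust, R 4.3.3) on genotype alone. Standard errors were derived from the log2 fold change and F. CPM use TMM-scaled totals. Symbols, positions and lengths came from GENCODE M21 (GRCm38), which named 45143 of 45706 genes, and 3 list symbols were matched through RefSeq synonyms. The members and lists were chosen with earlier results of these data known. Genes were named from the 10, Entpd8, of each list the members that passed or had the 6 lowest p-values with mean log2 CPM not below 0, and the 5 nearest in pattern. The fit was tested on simulated data. A gene of the scavenger list is not reported here by name. Alternatives used DESeq2 1.42.0, limma voom (limma 3.58.1), other scalings and filters, a replicate block, a lowess length trend (span 0.5) and leaving out each library. An exact permutation test of 3 against 3 cannot go below 0.1. Figures used matplotlib 3.10.9.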

Additional observations from a re-analysis of the deposited data

How the results depend on the processing

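Of the 10 genes, 3 were called in the reported fit and 3 with RLE, upper-quartile or total-count scaling, with either other filter, in DESeq2, in limma voom, at a threshold of 0.1 and with mitochondrial and hemoglobin genes left out. The length correction called 2. Leaving out 1 library gave 0 (without KO 1) to 3 of the 10, and 603 (without KO 1) to 3080 (without WT 2) of all genes, against 2871. It gave 1653 without WT 1, 1594 without KO 2 and 1744 without KO 3. With the replicate number as a block, 1468 genes and 2 of the 10 were called, and Stab1 was not (adjusted p = 0.0688). Same-numbered libraries did not deviate together (correlations -0.076, 0.013 and -0.085), and none of the 6 libraries correlated best with its own number. Signs changed for genes near 0: Clec4g was -0.0016 with upper-quartile scaling and -0.014 with library totals, Kdr -0.036 and -0.060, C6 -0.025 and -0.085, and Meis2 0.016 with the length trend removed. Without single libraries, Clec4g ran from -0.11 to 0.19, Fcgr2b from -0.11 to 0.25, Kdr from -0.32 to 0.24, C6 from -0.22 to 0.30 and Tie1 from -0.13 to 0.46. The cause of these changes was not tested. DESeq2 called 3585 genes and a threshold of 0.1 gave 4238. The block also ended the calls of Sparc, Cd93, Selp, Cdh13 and Ehd2, among others, and left 4 BMP and 2 VEGF genes called. Requiring 10 counts in every library left 2 angiocrine genes called of 16 tested, against 4 of 18, because Edn1 and Il6 did not meet that filter and were not tested. With 3 libraries per group, their number limits the precision.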
